A study of Homo sapiens with 11 samples.

Results

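The genes described here are 10 genes of the endoplasmic reticulum (ER) stress response and the integrated stress response: HSPA5, HSP90B1, DNAJB9, HERPUD1, XBP1, ATF4, DDIT3, TRIB3, CHAC1 and ASNS. They were chosen by symbol, and all 10 were found among the 28252 genes of the RT4 RNA-Seq data and among the 26237 promoters of the BEAS-2B H3K4me3 data. RT4 is a human urinary bladder epithelial cell line of a non-invasive bladder cancer, and BEAS-2B is a human lung epithelial cell line. The untreated cells (UT) of each line were compared with cells given 100 μM NiCl2 for 6 weeks (Ni-E) and with cells that were then grown without nickel (Ni-W). The RT4 Ni-W cells had 2 weeks without nickel. The BEAS-2B Ni-W cells were a single population expanded from an isolated colony and kept for over 6 months in nickel-free medium, so that they stand for 1 clone. RT4 had 2 RNA-Seq libraries per group, and BEAS-2B had 1 H3K4me3 ChIP-Seq library per group. The protocol names 2 biological replicates for the ChIP, and whether a library pools them is not stated. BEAS-2B RNA and the RT4 histone marks were not analysed here, so RNA and promoter values below come from different cell lines.

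Proteins that fail to fold in the ER activate 3 sensors, IRE1, ATF6 and PERK. IRE1 splices the XBP1 message, ATF6 is cut to release a transcription factor, and together these raise chaperones such as BiP, the product of HSPA5. PERK phosphorylates eIF2alpha, as do the kinases that sense amino acid shortage, haem shortage and viral RNA, and this integrated stress response lowers protein synthesis while the ATF4 message is translated more. ATF4 and its partner CHOP, the product of DDIT3, then drive genes for amino acid supply, redox balance and cell death.

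Promoter sequences are shown for the members that carry a known site of one of these arms, since the results below are ordered by arm. RefSeq gave 16 start sites for the 10 genes on GRCh38.p14, each with a window from 250 bases before to 50 after the start. The ER stress response element (ERSE: CCAAT, 9 bases, CCACG, either strand), a site of ATF6, was in a window of 3 of the 10 members and in 27 of 35116 promoter windows (0.0769%). The ERSE-bearing members were HSPA5, HSP90B1 and XBP1. The C/EBP-ATF composite site that ATF4 binds (TGATGNAA, either strand) was in a window of 3 other members, HERPUD1, CHAC1 and ASNS, and in 1270 windows (3.62%). The core of the unfolded protein response element (TGACGTGG, either strand) was in none of the members' windows and in 256 of all windows (0.729%). Counted by gene, as the members are, the ERSE was in 25 genes, the composite site in 1217 and the core in 253. No motif overlapped another in these windows, and the letters alone do not show that a factor binds. Only exact copies of these patterns were searched, so the windows may hold other forms of the elements, and a member may have sites of more than 1 arm. The 250 bases before the start follow, 5′ to 3′ on the strand of the gene, with the motif letters in capitals.
HSPA5 (chr9:125241344-125241593, minus strand): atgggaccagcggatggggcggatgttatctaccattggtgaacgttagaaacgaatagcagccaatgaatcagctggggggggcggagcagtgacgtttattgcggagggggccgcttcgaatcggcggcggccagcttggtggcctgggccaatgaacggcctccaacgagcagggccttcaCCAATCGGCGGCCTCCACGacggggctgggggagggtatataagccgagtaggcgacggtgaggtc
HSP90B1 (chr12:103930160-103930409, plus strand): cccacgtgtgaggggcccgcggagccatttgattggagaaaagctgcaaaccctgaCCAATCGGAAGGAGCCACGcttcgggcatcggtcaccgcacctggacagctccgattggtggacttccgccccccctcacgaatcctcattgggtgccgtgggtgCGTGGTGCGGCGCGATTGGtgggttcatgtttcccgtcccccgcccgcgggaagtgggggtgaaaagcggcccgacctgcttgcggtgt
XBP1 (chr22:28800570-28800819, minus strand): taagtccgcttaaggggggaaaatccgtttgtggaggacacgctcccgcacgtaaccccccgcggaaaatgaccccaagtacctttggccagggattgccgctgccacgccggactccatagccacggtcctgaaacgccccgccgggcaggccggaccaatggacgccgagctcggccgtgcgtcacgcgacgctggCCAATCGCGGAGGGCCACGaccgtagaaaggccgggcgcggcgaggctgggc
HERPUD1 (chr16:56931892-56932141, plus strand): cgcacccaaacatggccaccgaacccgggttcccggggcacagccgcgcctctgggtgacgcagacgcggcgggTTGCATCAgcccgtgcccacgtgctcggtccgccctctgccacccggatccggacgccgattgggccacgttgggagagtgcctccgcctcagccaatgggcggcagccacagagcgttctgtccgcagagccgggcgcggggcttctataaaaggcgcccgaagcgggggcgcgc
CHAC1 (chr15:40953221-40953470, plus strand): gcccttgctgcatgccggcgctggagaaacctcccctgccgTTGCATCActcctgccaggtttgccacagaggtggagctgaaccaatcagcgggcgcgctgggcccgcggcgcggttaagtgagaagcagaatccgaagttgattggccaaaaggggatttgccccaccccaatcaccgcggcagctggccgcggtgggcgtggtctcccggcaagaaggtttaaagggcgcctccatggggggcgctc
ASNS (chr7:97872409-97872658, minus strand): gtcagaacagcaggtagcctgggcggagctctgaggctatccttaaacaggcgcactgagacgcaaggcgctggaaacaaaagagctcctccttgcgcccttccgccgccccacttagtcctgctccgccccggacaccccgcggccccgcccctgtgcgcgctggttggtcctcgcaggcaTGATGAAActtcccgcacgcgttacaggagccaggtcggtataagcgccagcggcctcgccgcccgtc

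The ERSE of HSPA5 lay 66 to 48 bases before the start, and that of XBP1 52 to 34 bases before it. HSP90B1 held 2 copies, at 194 to 176 and, on the other strand, at 89 to 71 bases before the start. The composite site lay 68 to 61 bases before the start of ASNS, and on the other strand 209 to 202 bases before that of CHAC1 and 176 to 169 bases before that of HERPUD1. XBP1 and ASNS each have a second RefSeq start site whose window held none of the 3 motifs. DNAJB9, ATF4, DDIT3 and TRIB3 held none of the motifs in any window. GC content of the members' windows ran from 57.3% to 77.0%, against a median of 58.7% over all windows.

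The RT4 libraries held 17075823 to 18280562 assigned reads for replicate 1 of each group and 25721268 to 27736460 for replicate 2. Of the urothelial markers, KRT7 (4384 to 6549 TPM) and GATA3 (178 to 236 TPM) were high in all libraries. VIM, COL1A1, COL1A2, PTPRC and PECAM1, markers of fibroblasts, leukocytes and endothelium, stayed at or under 0.85 TPM (COL1A2 was listed at 0 in every library). Other urothelial markers were lower under nickel. KRT20 stood at 11.07 and 11.27 TPM in UT and at 0.25 and 0.11 in Ni-E cells, and UPK2 had a mean of 343.5 TPM in UT and 112 in Ni-E cells. KRT20 (log2 fold change −6.03, adjusted p = 0.00850, edgeR) and UPK1A (−2.27, adjusted p = 0.0377), which mark the surface layer of the urothelium, fell in Ni-E cells, both calls being lost without either Ni-E library (adjusted p from 0.0927 to 0.321) and that of UPK1A also without either UT library (0.0706 and 0.152). In Ni-W cells KRT20 was also lower than in UT cells (−2.97, adjusted p = 0.0294, edgeR), a call lost in 8 of 13 alternatives, among them those without any 1 of the UT, Ni-E and Ni-W libraries (adjusted p from 0.0873 to 0.167). Of 10 urothelial markers edgeR called 2 lower in Ni-E and 1 in Ni-W cells, beside 103 and 14 of 14502 genes, and 0 higher in either. DESeq2 called 4 of the 10 lower in Ni-E and 1 in Ni-W cells, beside 272 and 98 of the same 14502 genes, and 0 higher. In counts scaled to library size, 7 of the 10 had both Ni-E libraries below both UT libraries, as 19.3% of all genes did. For Ni-W libraries it was 4 of the 10, beside 14.1% of all genes. Whether these changes in urothelial markers bear on the values of the stress genes was not tested. RNA was measured on whole cultures, in which fewer cells expressing a gene and less RNA per cell cannot be told apart. A change is called below where the fold change was at least 1.5 and the adjusted p was under 0.05 over 14502 genes in edgeR.

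TPM corrects for gene length and orders the members by level. In UT cells ATF4 was highest at 684 ± 119 TPM (SD, n = 2), followed by HSP90B1 at 451 ± 4.60, HSPA5 at 249 ± 17.9 and XBP1 at 188 ± 40.6 TPM. TRIB3 stood at 87.9 ± 8.04, DDIT3 at 41.4 ± 11.7, ASNS at 29.2 ± 1.37 and HERPUD1 at 28.8 ± 8.95 TPM. CHAC1 at 7.91 ± 0.134 and DNAJB9 at 5.00 ± 3.17 TPM were lowest. The UT values of HERPUD1 overlapped those of both ASNS and DDIT3, whereas each of the 4 most abundant genes had both of its values clear of the next. In Ni-E cells CHAC1 stood at 27.4 ± 0.113 TPM, next below the 29.40 and 38.73 TPM of HERPUD1, while DNAJB9 was lowest in every library.

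**Figure D1:**
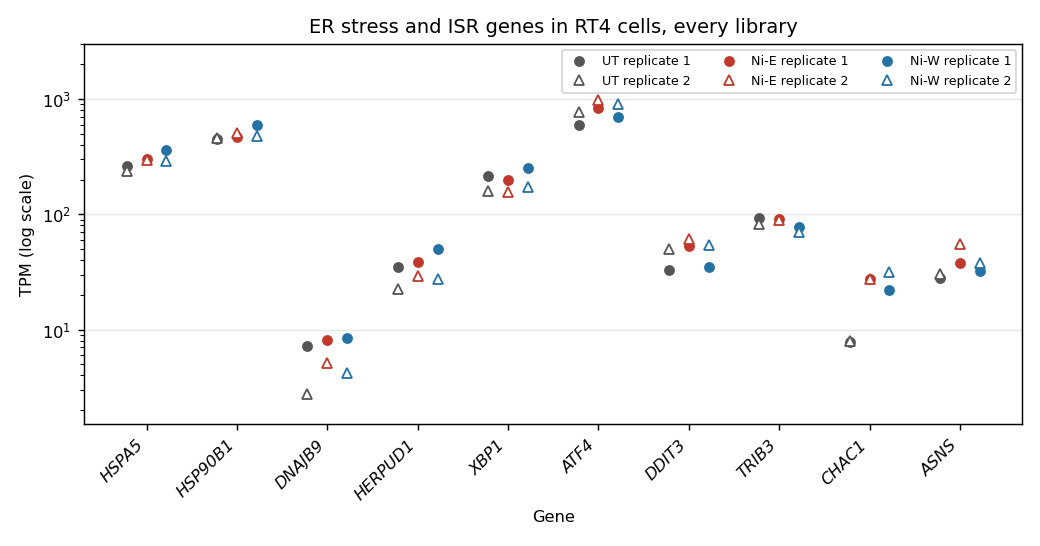
TPM on a log scale of the 10 genes in each of the 6 RT4 libraries (grey UT, red Ni-E, blue Ni-W; filled circles replicate 1, open triangles replicate 2). The 2 UT values of CHAC1, 7.81 and 8.0, lie apart from its Ni-E and Ni-W values of 21.83 to 31.46, and the other genes vary over narrower ranges.

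CHAC1 showed the largest difference of the 10 genes. It encodes a gamma-glutamylcyclotransferase that degrades glutathione, and it is a target of ATF4. Its TPM was 7.81 and 8.0 in UT cells, 27.32 and 27.48 in Ni-E cells and 21.83 and 31.46 in Ni-W cells. Every nickel-treated library was therefore above both UT libraries, also 2 weeks after nickel was removed. The fitted CHAC1 level was 3.42 times that of UT in Ni-E cells (log2 fold change 1.77 ± 0.34 SE, adjusted p = 0.0743, edgeR) and 3.35 times in Ni-W cells (1.74 ± 0.34 SE, adjusted p = 0.121, edgeR). The difference thus missed the call in the main test in both comparisons. DESeq2 called CHAC1 in both, with adjusted p = 0.000269 for Ni-E against UT and 0.000649 for Ni-W against UT. Over the 14 alternative settings the adjusted p ran from 0.000151 to 0.410 for Ni-E and from 0.000298 to 0.543 for Ni-W, and the log2 fold change stayed between 1.64 and 1.93 and between 1.22 and 2.13. In Ni-E cells CHAC1 was called in 8 of the 14 alternatives, among them the edgeR fit without a filter on low counts (adjusted p = 0.0328). In edgeR it missed the call with RLE in place of TMM factors (0.0735) and with at least 10 counts in every library (0.0895). Fits without a UT or Ni-E library did not call it either, with log2 fold changes of 1.64 to 1.93. In Ni-W cells 12 of the 14 alternatives did not call CHAC1. Between Ni-W and Ni-E cells the log2 fold change of CHAC1 was −0.03 ± 0.33 SE, and it was −0.47 between the 2 libraries numbered 1 and 0.27 between those numbered 2.

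ASNS makes asparagine from aspartate and is a well-known target of ATF4, and its fold change came second in Ni-E cells. It stood at 28.26 and 30.19 TPM in UT cells, 37.58 and 55.25 in Ni-E cells, and 32.41 and 37.75 in Ni-W cells. Both Ni-E libraries lay above both UT libraries, and the 2 Ni-E values differed from each other by more than the UT values did. ASNS shares 2415 of its 4896 exonic bases with ENSG00000284707, a long non-coding RNA gene on the same strand. Reads of ASNS may therefore include those of that gene, which was not tested. The fitted log2 fold change of ASNS was 0.76 ± 0.22 SE in Ni-E cells (adjusted p = 0.197, edgeR) and 0.28 ± 0.22 SE in Ni-W cells (adjusted p = 0.976). From Ni-E to Ni-W it was −0.48 ± 0.22 SE (adjusted p = 0.980), so that no ASNS difference passed the main test. DESeq2 gave an adjusted p of 0.120 for ASNS in Ni-E cells, and over the 14 alternatives it ran from 0.00190 to 0.874. The lowest came from the edgeR fit with the replicate number as a block, the single alternative that called ASNS in Ni-E cells (log2 fold change 0.75, with 0.60 between the libraries numbered 1 and 0.90 between those numbered 2).

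TRIB3, a pseudokinase that ATF4 and CHOP induce and that dampens their activity, did not follow CHAC1 and ASNS. It was at 93.63 and 82.26 TPM in UT, 90.59 and 89.11 in Ni-E, and 77.95 and 70.23 in Ni-W cells. UT and Ni-E values overlapped, and both Ni-W values were the lowest of the 6. The log2 fold change of TRIB3 was 0.05 ± 0.16 SE for Ni-E and −0.30 ± 0.16 SE for Ni-W against UT, with an adjusted p of 0.997 and 0.770 (edgeR).

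The factors ATF4 and DDIT3 differed as much between the libraries of a group as between groups. ATF4 is controlled mainly at translation, which RNA levels do not show. ATF4 stood at 599.86 and 768.75 TPM in UT, 832.71 and 981.58 in Ni-E and 701.18 and 896.86 in Ni-W cells. In CPM, counts scaled to library size, which is the scale of the test, its UT values of 420.3 and 661.3 overlapped the Ni-E values of 585.7 and 781.6, so that the separation seen in TPM was absent. Its log2 fold change in Ni-E cells was 0.34 ± 0.35 SE (adjusted p = 0.932, edgeR). DDIT3, whose product CHOP promotes apoptosis when ER stress persists, had 33.11 and 49.59 TPM in UT, 52.76 and 60.52 in Ni-E, and 35.07 and 54.59 in Ni-W cells. In CPM the UT values of DDIT3 were 14.50 and 27.16 and the Ni-E values 22.93 and 30.35, which overlap. Its log2 fold change was 0.35 ± 0.44 SE in Ni-E cells (adjusted p = 0.968, edgeR) and 0.05 ± 0.44 SE in Ni-W cells. Within a group, replicate 2 of DDIT3 exceeded replicate 1 by 0.40 to 1.02 on the log2 scale and replicate 2 of ATF4 exceeded replicate 1 by 0.42 to 0.77. DDIT3 shares exonic bases with 3 neighbouring protein-coding genes in GENCODE version 44, at most 355 with any 1 of them. The library kit is not stated to keep strand, so that reads of DDIT3 may include those of a neighbour.

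HSPA5 and HSP90B1 encode the ER chaperones BiP and GRP94, the standard readouts of the ATF6 and XBP1 arms. HSPA5 stood at 261.13 and 235.86 TPM in UT, 299.70 and 293.94 in Ni-E, and 358.81 and 287.34 in Ni-W cells. All 4 nickel-treated libraries were above both UT libraries, in TPM and in CPM, by a small margin. The log2 fold change of HSPA5 was 0.25 ± 0.16 SE in Ni-E cells (adjusted p = 0.719, edgeR) and 0.32 ± 0.16 SE in Ni-W cells (adjusted p = 0.710), corresponding to 1.19 and 1.25 times the UT level. HSP90B1 had 447.69 and 454.20 TPM in UT, 463.46 and 509.31 in Ni-E, and 589.00 and 473.80 in Ni-W cells. In CPM, HSP90B1 overlapped between all groups, with log2 fold changes of 0.10 ± 0.19 SE and 0.17 ± 0.19 SE against UT. It shares 805 exonic bases with UQCC6 on the other strand.

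XBP1, DNAJB9 and HERPUD1 complete the ER arms. XBP1 had 216.75 and 159.35 TPM in UT, 197.09 and 157.46 in Ni-E, and 250.58 and 170.64 in Ni-W cells, with log2 fold changes of −0.09 ± 0.17 SE and 0.10 ± 0.17 SE against UT. Gene-level values cannot tell spliced from unspliced XBP1 message. HERPUD1, which links the ER membrane to degradation of misfolded proteins, had 35.14 and 22.48 TPM in UT, 38.73 and 29.40 in Ni-E, and 50.41 and 27.62 in Ni-W cells. DNAJB9, a BiP co-chaperone and a target of spliced XBP1, had 7.24 and 2.76 TPM in UT, 8.05 and 5.10 in Ni-E, and 8.43 and 4.16 in Ni-W cells. For both HERPUD1 and DNAJB9, replicate 1 was higher than replicate 2 in all 3 groups, by up to 0.48 and 1.12 on the log2 CPM scale, and the groups overlapped. Their log2 fold changes in Ni-E cells were 0.25 ± 0.25 SE for HERPUD1 and 0.42 ± 0.45 SE for DNAJB9, and in Ni-W cells 0.36 ± 0.25 SE and 0.28 ± 0.45 SE (adjusted p = 0.925 or more in each, edgeR).

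**Figure D2:**
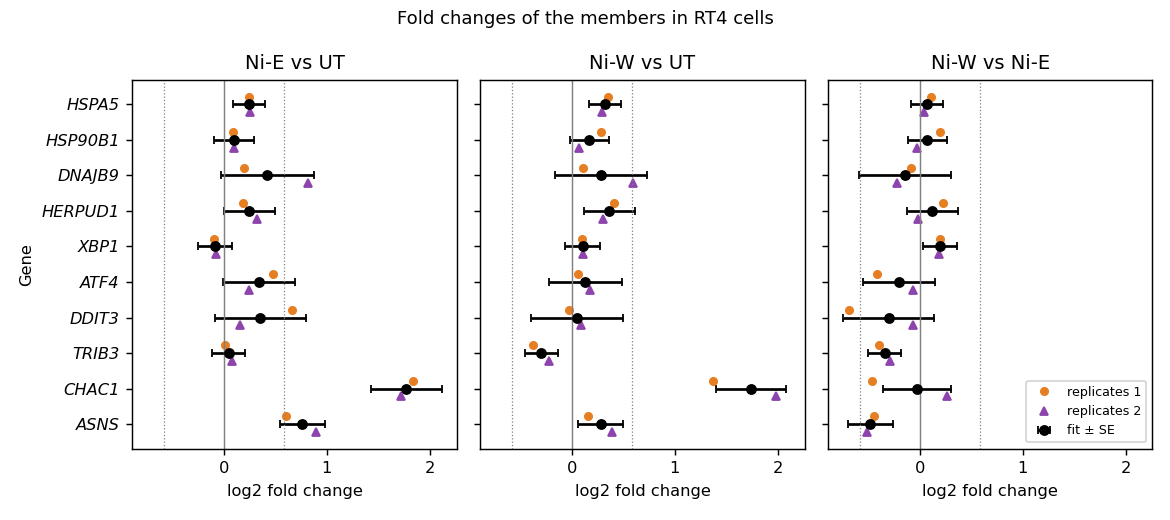
Log2 fold changes of the 10 genes in RT4 cells for the 3 comparisons: black points with bars are edgeR fits ± SE (2 libraries per group), orange circles and purple triangles the ratios of CPM between libraries of replicate number 1 and 2, dotted lines 1.5-fold. CHAC1 stands at 1.77 and 1.74 against UT and at −0.03 between Ni-W and Ni-E, and DDIT3, ATF4 and DNAJB9 have the widest bars.

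Across the 10 genes, 0 were called in Ni-E against UT by edgeR, where 2.17% of all genes tested were (314 of 14502). At an unadjusted p under 0.05 there were 2 of the 10, CHAC1 and ASNS, against 12.2% of all genes. DESeq2 called 1, CHAC1, against 4.65% of 15780 genes, and limma on log2(TPM + 1) also called 1. In CPM, 3 of the 10 had both Ni-E libraries above both UT libraries (HSPA5, CHAC1 and ASNS; 20.3% of all genes did) and 0 had both below (19.3% of all genes). The median log2 fold change of the 10 genes was 0.29, beside −0.01 over all genes, and 9 of the 10 were above 0. In Ni-W against UT, edgeR called 0 of the 10 and 0.6% of all genes (87), 1 had an unadjusted p under 0.05 (9.12% of all genes), DESeq2 called 1 (2.77% of all genes) and limma called 0. HSPA5, CHAC1 and ASNS were again without overlap above UT (3 of 10, against 15.1% of all genes), and TRIB3 was below (1 of 10, against 14.1%). The median of the 10 was 0.23, beside 0.00121 over all genes. Both comparisons use the same 2 UT libraries. Between Ni-W and Ni-E cells edgeR called 0 of the 10 and 0% of all genes (0 of 14502), with none of the 10 and 5.57% of all genes at an unadjusted p under 0.05, and DESeq2 and limma also called 0 of the 10. In that comparison XBP1 was higher without overlap (1 of 10, against 12.7% of all genes) and TRIB3 and ASNS were lower (2 of 10, against 12.7%). The shares of members called or without overlap are therefore near those of all genes, with 1 or 2 genes making the difference. A permutation of 2 against 2 libraries cannot give a two-sided exact p under 0.333, so that all calls rest on the spread shared across genes. The study's methods call the 2 RNA samples of a group biological replicates.

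The wider pathway was read from 7 lists of other genes, of which 7 of 91 tested genes rose and 0 fell in Ni-E cells: 4 in the ATF4 and CHOP list, 2 in the amino acid list and 1 in the ER chaperone list. Over all 14502 genes tested 211 rose and 103 fell, and 48.4% had a log2 fold change above 0. The lists were chosen with earlier results of these data known, so their counts and medians here and below are a description and no test. Of 13 regulators and effectors of ATF4 and CHOP, 4 rose and 0 fell in Ni-E cells, with a list median of 0.94 on the log2 scale and 11 of 13 above 0. STC2, a secreted glycoprotein of calcium and phosphate balance, rose the most, from 1.04 and 1.05 TPM in UT cells to 25.44 and 24.34 in Ni-E cells (log2 fold change 4.55 ± 0.22 SE, adjusted p = 0.00605, edgeR). ATF3, a transcription factor downstream of ATF4, rose from 5.20 and 7.46 to 34.32 and 40.42 TPM (2.52 ± 0.34 SE, adjusted p = 0.0313). VLDLR, a lipoprotein receptor, rose from 1.19 and 0.93 to 6.60 and 4.37 TPM (2.35 ± 0.26 SE, adjusted p = 0.020). DDIT4, an inhibitor of mTORC1, rose from 240.03 and 169.79 to 496.18 and 399.28 TPM (1.13 ± 0.17 SE, adjusted p = 0.0379). STC2, VLDLR and DDIT4 are also known as targets of hypoxia-inducible factors, so that their place in this list does not assign them to ATF4. Without a UT or Ni-E library, that group had 1 library left, and ATF3, VLDLR and DDIT4 then missed the call (adjusted p from 0.0782 to 0.354, edgeR), as did STC2 without Ni-E replicate 1 (0.0927) or 2 (0.117). VLDLR and DDIT4 also missed it in limma on either TPM scale (adjusted p from 0.096 to 0.154).

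Of 16 tested genes of amino acid synthesis and transport, 2 rose and 0 fell in Ni-E cells, with a median of 0.40 and 15 of 16 above 0. They were SLC7A11, the cystine importer that feeds glutathione synthesis (3.09 and 2.52 TPM in UT, 9.80 and 8.70 in Ni-E; 1.72 ± 0.24 SE, adjusted p = 0.0321, edgeR), and SLC7A5, which imports large neutral amino acids (7.97 ± 0.573 TPM in UT and 18.3 ± 2.37 in Ni-E, SD, n = 2; 1.19 ± 0.18 SE, adjusted p = 0.0379). Without any 1 of the UT and Ni-E libraries both missed the call (adjusted p from 0.186 to 0.350, edgeR), and so they did in limma on either TPM scale (0.152 to 0.162). None of 12 aminoacyl-tRNA synthetases passed the test, and their median was 0.30 (2 had an unadjusted p under 0.05 and DESeq2 called 0).

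The ER lists held 1 call. Of 16 ER chaperones and folding enzymes only ERO1A, the oxidase that regenerates protein disulfide isomerase, rose in Ni-E cells, from 58.25 and 54.22 to 119.23 and 130.28 TPM (1.14 ± 0.18 SE, adjusted p = 0.0414, edgeR), and ERO1A is likewise known as a hypoxia target. Without any 1 of the UT and Ni-E libraries its adjusted p was 0.230 to 0.331, and without Ni-W replicate 2 it was 0.0507. In limma it was 0.0577 on log2(TPM + 1) and 0.0613 on log2(TPM + 0.1). The other 15 ran from −0.27 (PPIB) to 0.26 (FKBP14), and the list's median was −0.02. Of 12 genes of ER-associated degradation and 12 sensors and eIF2alpha regulators, 0 were called by edgeR or DESeq2 and 0 had an unadjusted p under 0.05, with medians of 0.07 and 0.07. Of 10 heat shock proteins of the cytosol or, as HSPD1 and HSPE1, of mitochondria, 0 were called by either tool. Of these, 1 had an unadjusted p under 0.05, and the median was 0.29. The lists' medians were thus highest for the ATF4 and amino acid lists and near that of all genes for the ER lists; differences between lists were not tested.

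In Ni-W cells STC2 alone of these 91 tested genes passed, with 8.54 and 7.57 TPM (2.88 against UT, adjusted p = 0.0131, edgeR), below both Ni-E libraries. Its adjusted p was 0.0891 to 0.109 without any 1 of the UT and Ni-E libraries and 0.114 with only the 2 groups compared in the fit, so that the call was lost in 5 of 14 alternatives. DESeq2 called 4 of the 91, beside 2.77% of all genes. At an unadjusted p under 0.05 in edgeR there were 11 of the 91, beside 9.12% of all genes. ATF3 was at 5.41 and 5.05 TPM, within 0.37 below UT on the log2 scale (adjusted p = 1.00), so that its 2 Ni-W values lay about where the UT values did. The difference between Ni-W and Ni-E cells did not pass edgeR for ATF3 (−2.89, adjusted p = 0.156) or STC2 (−1.67, adjusted p = 0.148), whereas DESeq2 called both (adjusted p = 5.22e-11 and 1.41e-07). The median of the ATF4 and CHOP list was 0.26 in Ni-W cells, and that of the amino acid list 0.16. SLC7A11 stood at 7.67 and 3.99 TPM and SLC7A5 at 16.06 and 11.09 TPM in Ni-W cells, between UT and Ni-E.

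**Figure D3:**
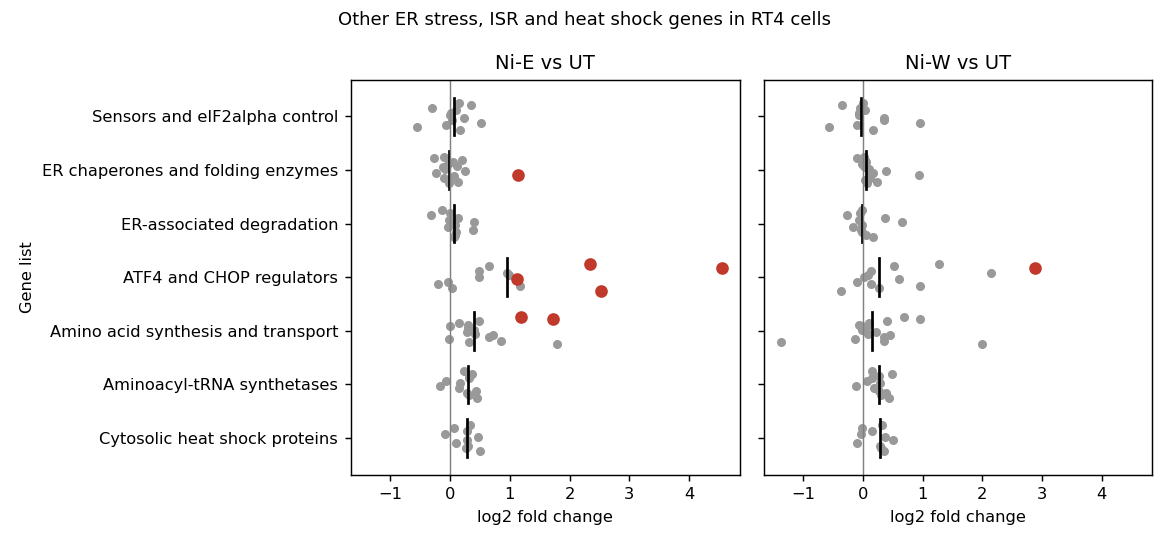
Log2 fold changes against UT of the tested genes of 7 pathway lists in RT4 Ni-E and Ni-W cells; each point is a gene, red points passed 1.5-fold and an adjusted p under 0.05 in edgeR, and black bars are list medians. In Ni-E cells the 7 red points fall in the ATF4 and CHOP, amino acid and chaperone lists, and in Ni-W cells the single red point is STC2 at 2.88.

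To place the members among other genes, the 5 genes whose log2 CPM followed HSPA5 or ASNS most closely over the 6 libraries were read out of 11140 genes. For HSPA5 they were RCN1 (Pearson r = 0.995), LINC00958 (0.993), LHFPL6 (0.992), IGFBP3 (0.991) and AIM2 (0.988). RCN1, a calcium-binding protein of the ER, had 323 and 347 CPM in UT, 370 and 393 in Ni-E and 390 and 413 in Ni-W cells, the same stepwise order as HSPA5. For ASNS they were RRAGA (0.989), HIST1H2BK (0.986), SAP30 (0.982), NCS1 (0.981) and CCNL1 (0.980). None of these 10 genes passed edgeR in any comparison. The 6 libraries share groups and differences in depth, and the values are a description only.

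In BEAS-2B cells H3K4me3, trimethylation of lysine 4 of histone H3, marks the promoters of active genes, and it was measured as RPKM in 4 kb around each start. The libraries held 28385697 reads for UT, 37493914 reads for Ni-E and 29933465 reads for Ni-W, and the median promoter had 1.568, 1.387 and 1.119 RPKM. The share of reads inside promoters was 37.6% in UT, 36.0% in Ni-E and 22.9% in Ni-W cells, so that raw RPKM was lower in Ni-W cells at most promoters, and ratios are given after division by each library's median. The promoters of VIM (8.95 RPKM) and KRT7 (7.15) carried the mark in UT cells, EPCAM (2.21) and CDH1 (1.02) less so, and PTPRC was at 0. No difference between these libraries has a replicate check, and intervals cover counting error only.

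All 10 promoters carried H3K4me3 in all 3 libraries, at 3.66 to 7.98 times the median promoter in UT cells. ATF4 had the highest level in UT at 12.5 RPKM (95% Wilson interval 11.9 to 13.2), followed by HSP90B1 at 12.3 (11.6 to 12.9), HSPA5 at 11.7 (11.1 to 12.4) and XBP1 at 10.7 (10.1 to 11.3). TRIB3 had 9.96 (9.40 to 10.6), DDIT3 9.33 (8.78 to 9.91) and DNAJB9 9.29 (8.75 to 9.87). HERPUD1 at 6.89 (6.42 to 7.39), CHAC1 at 6.05 (5.61 to 6.52) and ASNS at 5.74 (5.32 to 6.20) were lowest. Neighbours in this order had overlapping intervals, except HERPUD1 below DNAJB9. The windows of DNAJB9 and DDIT3 also hold the starts of other protein-coding genes, whose signal cannot be told apart. They are THAP5 and PNPLA8 for DNAJB9, and MBD6 and ENSG00000285133 for DDIT3.

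**Figure D4:**
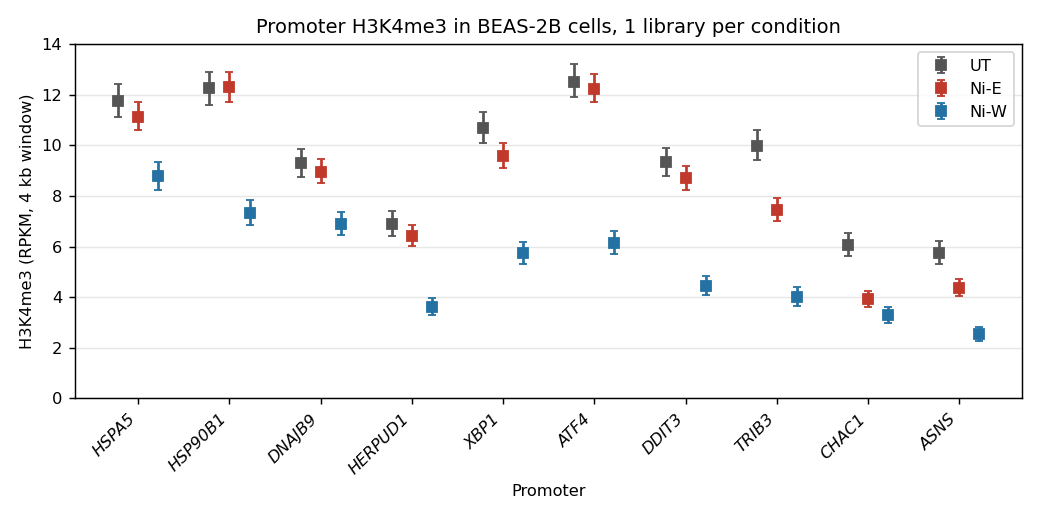
H3K4me3 in RPKM over the 4 kb promoter windows of the 10 genes in BEAS-2B cells, 1 library per condition, with 95% Wilson intervals for counting error. Ni-E is below UT at 9 promoters, furthest at TRIB3, CHAC1 and ASNS, while UT and Ni-E lie closer together at the other 7. Ni-W is lowest at all 10.

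After median scaling, the promoters of CHAC1, TRIB3 and ASNS had less H3K4me3 in Ni-E than in UT cells, while the other 7 did not. Before scaling, 9 of the 10 were lower in Ni-E cells. CHAC1 went from 6.05 to 3.91 RPKM, a ratio of 0.731 after median scaling (log2 ratio −0.45, 95% counting interval −0.61 to −0.29). TRIB3 went from 9.96 to 7.45 RPKM (ratio 0.845, log2 ratio −0.24, −0.36 to −0.12), and ASNS from 5.74 to 4.35 RPKM (0.857, −0.22, −0.38 to −0.07). Among the 8216 promoters with a mean level in the members' range, 4.21 to 10.6 RPKM, 6 (0.073%) had a log2 ratio below that of CHAC1, 35 (0.426%) below that of TRIB3 and 52 (0.633%) below that of ASNS. CHAC1 and ASNS were the lowest members in all 3 libraries, at the low end of this range, and were thus ranked against mostly stronger promoters. The lower tail depends on level: 0.394% of promoters with at least 1 RPKM were past 1.5-fold lower, and 0.0122% of those in range. The ranks of CHAC1 and ASNS among promoters of their own level were not computed. The other 7 members lay between 0.02 (XBP1) and 0.18 (HSP90B1), around the median of 0.12 for promoters in this range. CHAC1, TRIB3 and ASNS were below 0 also without scaling (−0.63, −0.42 and −0.40) and after quantile normalization (−0.55, −0.38 and −0.32), whereas the sign of most of the others turned with the scaling: HSPA5, for example, was 0.10 with median scaling, −0.08 without and −0.03 after quantile normalization. None of the 10 was past 1.5-fold after median scaling, where 1.04% of the 13701 promoters that averaged 1 RPKM or more and 0.195% of those in the members' range were. CHAC1, TRIB3 and ASNS are known targets of ATF4, which was noticed after their values were seen. DDIT3, another target of ATF4, stood at 0.07, and HERPUD1, whose window holds the composite site, at 0.08.

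The promoters of the pathway lists were read in the same way for Ni-E against UT. Of the 13 ATF4 and CHOP regulators, 8 had a log2 ratio below 0 and 5 above, the lowest being NUPR1 (−1.02, from 1.27 to 0.553 RPKM), GDF15 (−0.65, from 0.581 to 0.327) and DDIT4 (−0.27, from 9.58 to 7.05), chosen here for their values. NUPR1 and GDF15 carried little of the mark, both under 1 RPKM in Ni-E cells, and lay well below the members' range. Ratios spread more among weak promoters: 2.12% of all listed promoters were past 1.5-fold lower, beside 0.394% of those with at least 1 RPKM. No counting intervals were computed for the list genes. The sensors (11 of 11 with reads in both libraries), the ER chaperones (16 of 16) and the heat shock proteins (9 of 9) were all above 0 after median scaling, where 78.3% of promoters with at least 1 RPKM were, and the sign of these small ratios depends on the scaling. STC2, whose RNA rose in RT4 cells, had a log2 ratio of −0.12 in BEAS-2B cells, and ATF3 −0.02. The cell lines differ and no BEAS-2B RNA was analysed here, so that promoter and RNA values cannot be joined gene by gene.

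In Ni-W cells the members' H3K4me3 was lower than in UT cells at 8 of 10 promoters after median scaling, with a median log2 ratio of −0.43, beside −0.34 for promoters in the same range of level. TRIB3 (4.02 RPKM, ratio 0.565) and ASNS (2.53 RPKM, ratio 0.618) were past 1.5-fold, 2 of 10, beside 21.8% of promoters with at least 1 RPKM and 18.9% of those in range. HSPA5 (8.77 RPKM, ratio 1.05) and DNAJB9 (6.89 RPKM, ratio 1.04) stood near the UT level relative to the median, and 85.7% and 85.0% of promoters in range had lower ratios. Against Ni-E cells, ATF4 (ratio 0.623) and DDIT3 (0.636) were past 1.5-fold, again 2 of 10, beside 33.7% of promoters with at least 1 RPKM and 34.1% of those in range. CHAC1 was the only member above 0 in that comparison (ratio 1.04, from 3.91 to 3.29 RPKM before scaling), and 91.3% of promoters in range had lower ratios. The median of the members against Ni-E, −0.45, equalled that of the promoters in range. These counts depend on scaling, since without it 8 of 10 members were past 1.5-fold lower in Ni-W against UT and after quantile normalization 0 were.

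**Figure D5:**
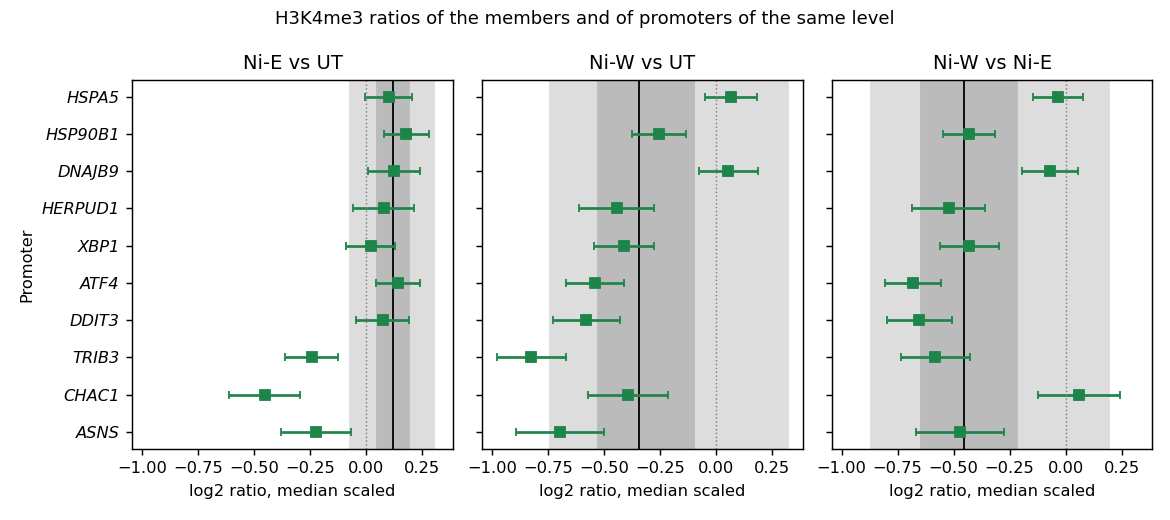
Log2 ratios of median-scaled H3K4me3 at the 10 promoters for the 3 comparisons in BEAS-2B cells (green squares with 95% counting intervals). Behind them is the spread of the 8216 promoters with a mean in the members' range, 4.21 to 10.6 RPKM (black line median, dark band middle 50%, light band middle 90%). CHAC1 and ASNS lie at the low end of that range. In Ni-E against UT, CHAC1 (−0.45), TRIB3 (−0.24) and ASNS (−0.22) lie outside the light band, and in Ni-W against UT TRIB3 (−0.82) does.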

How the data were processed

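RNA-Seq of RT4 cells (UT, Ni-E and Ni-W, 2 libraries each) and H3K4me3 ChIP-Seq of BEAS-2B cells (1 library each) were analysed. The 10 genes, the pathway lists and the motifs were chosen with earlier results of these data known. The authors deposited RSEM expected counts and TPM per gene; the submitters' processing notes name STAR, DESeq2 and hg38, the paper's methods name hg19, and which alignments RSEM used is not given in the sources used here. RSEM divides reads that fit several genes between them. For ChIP-Seq the authors used BWA, reduced duplicate reads to a single one, ran no peak caller and deposited RPKM for the 4 kb around each transcription start site.

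Expected counts were rounded and tested with edgeR 4.0.16 (quasi-likelihood, TMM, filterByExpr, 1 model of the 3 groups, Benjamini-Hochberg over 14502 genes). DESeq2 1.42.0, limma 3.58.1 on log2(TPM + 1) or log2(TPM + 0.1) for genes with a mean of at least 1 TPM, other filters, only the 2 groups compared, a replicate block and leaving out each library were alternatives. Scripts were tested on simulated data. There edgeR recovered most changed genes in the right direction, while unchanged genes made up a larger share of its calls than the nominal level, which bears most on calls with an adjusted p close to 0.05. A gene was called at a 1.5-fold change and an adjusted p under 0.05. The genes named were all members, the called genes of the lists (at most 4 per list and comparison) and the 5 genes most correlated with HSPA5 or ASNS (mean of at least 5 CPM). The libraries of a group differed by far more than sampling noise.

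Within a library all RPKM values were whole multiples of 1 unit (tolerance 0.0006 RPKM), which gave reads per promoter and the depth. Ratios were taken after division by each library's median, with 95% Wilson intervals for levels. Reads carry no molecular identifiers, so intervals cover counting error only. Promoter windows came from RefSeq on GRCh38.p14 and gene overlaps from GENCODE version 44. The ChIP input libraries were not used here.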

Additional observations from a re-analysis of the deposited data

How the results depend on the processing

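The log2 fold changes of the 10 genes kept their direction and their side of the threshold in 389 of 420 recomputed values (14 alternatives). Called members of the 10 numbered 0 in Ni-E against UT in the main test. They numbered 1, CHAC1, with DESeq2, without a filter on low counts, with only the 2 groups compared, and with limma on either TPM scale, and 0 to 1 when 1 library was left out. Libraries with the same replicate number deviated together (correlations of 0.657, 0.764 and 0.689), but the labels tie them to nothing shared. With the replicate block 2 members were called in Ni-E, CHAC1 and ASNS (adjusted p = 0.000151 and 0.00190, edgeR). In Ni-W against UT the count of called members went from 0 to 1, CHAC1, with DESeq2 and with the replicate block (adjusted p = 0.000298). Over all genes the block raised the calls from 314 to 1833 in Ni-E, from 87 to 1243 in Ni-W and from 0 to 655 between Ni-W and Ni-E, where DESeq2 called 734, 437 and 139 and limma on log2(TPM + 1) 170, 79 and 0. The causes were not tested.

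Directions turned in 20 values, all when 1 library was left out, and none of these differences passed the test. In Ni-E against UT the log2 fold change then ran from −0.060 to 0.25 for HSP90B1, from −0.038 to 1.09 for DNAJB9, from −0.17 to 0.0030 for XBP1 and from −0.025 to 0.88 for DDIT3. In Ni-W against UT it ran from −0.18 to 0.94 for DNAJB9, from −0.31 to 0.50 for ATF4 and from −0.55 to 0.58 for DDIT3. Between Ni-W and Ni-E it ran from −0.064 to 0.23 for HSP90B1, −0.47 to 0.14 for DNAJB9, −0.13 to 0.34 for HERPUD1, −0.64 to 0.14 for ATF4, −0.90 to 0.13 for DDIT3 and −0.56 to 0.36 for CHAC1. The count of called ATF4 and CHOP regulators in Ni-E against UT, added after seeing the data, was 4 in the main test and 0 to 8 over the alternatives, and that of amino acid genes was 2 and 0 to 5.

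For H3K4me3, members past 1.5-fold in Ni-E against UT went from 0 to 1 without median scaling. In Ni-W against UT they went from 2 to 8 without scaling, 0 after quantile normalization and 4 with log2(RPKM + 1), and in Ni-W against Ni-E from 2 to 7 without scaling and 0 after quantile normalization. With 1 library per condition, depth sets only the counting interval.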
